A study of Mus musculus with 6 samples.

Results

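The genes described here are B2m and 9 MHC class I heavy chain genes, H2-K1, H2-D1, H2-Q4, H2-Q6, H2-Q7, H2-T3, H2-T10, H2-T22 and H2-T23. They were chosen by symbol, with earlier results of these data known, from the deposited count table. All 10 were found there among 54446 genes, and all 10 were among the 15068 genes that passed the filter on low counts. RNA came from intestinal epithelium of Prkci flox/flox Villin-CRE mice (knockout, n = 3) and of Prkci flox/flox mice (control, n = 3), so that both groups carry the floxed alleles and the knockout mice alone carry the recombinase. Villin-CRE acts in intestinal epithelial cells, the mice were co-housed and aged 3 to 4 months, each library has a mouse number of its own in its title, and no strain or H2 haplotype is named in the labels. The sample titles give jejunum, and the series text gives segments of jejunum and ileum.

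A class I molecule is a heavy chain held at the cell surface together with beta-2-microglobulin, the light chain encoded by B2m, and a short peptide from the cell's own proteins. H2-K1 and H2-D1 encode the classical chains that show peptides to CD8 T cells. The Q and T genes encode non-classical chains with narrower partners, several of them receptors on intraepithelial lymphocytes. In the textbook pathway, interferon-gamma induces IRF1 and NLRC5, and NLRC5 assembles with RFX proteins on the X and Y boxes of class I promoters, next to sites for NF-kappaB and interferon regulatory factors (IRF).

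The promoters are shown first because these elements differ among the genes. RefSeq windows on GRCm38.p6, from 250 bases before to 50 bases after the start site, existed for 9 of the 10 genes. H2-K1 had a pair of overlapping windows, of which the one with the lower coordinates is used. Each was searched on both strands for 4 motifs, a kappaB-type motif (GGGATTNCC), an IRF core (AANNGAAA), an X2-type motif (TGATGAC) and a Y box (ATTGG). Each stretch of 170 bases begins 30 bases before the IRF core farthest from the start site, and capitals mark every match of the 4 motifs.
H2-K1 (chr17:34000298-34000467, minus strand): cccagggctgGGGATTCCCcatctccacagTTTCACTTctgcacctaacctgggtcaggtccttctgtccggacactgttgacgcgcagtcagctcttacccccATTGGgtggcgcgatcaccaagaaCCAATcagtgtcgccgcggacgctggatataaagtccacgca
H2-Q4 (chr17:35379434-35379603, plus strand): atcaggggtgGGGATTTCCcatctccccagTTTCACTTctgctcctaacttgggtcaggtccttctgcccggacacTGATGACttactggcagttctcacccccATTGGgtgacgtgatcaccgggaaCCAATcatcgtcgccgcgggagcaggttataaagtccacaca
H2-Q7 (chr17:35439012-35439181, plus strand): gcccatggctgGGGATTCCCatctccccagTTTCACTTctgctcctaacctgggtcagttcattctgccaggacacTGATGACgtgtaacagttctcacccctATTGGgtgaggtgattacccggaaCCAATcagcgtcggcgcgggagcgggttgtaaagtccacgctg
H2-T22 (chr17:36042794-36042963, minus strand): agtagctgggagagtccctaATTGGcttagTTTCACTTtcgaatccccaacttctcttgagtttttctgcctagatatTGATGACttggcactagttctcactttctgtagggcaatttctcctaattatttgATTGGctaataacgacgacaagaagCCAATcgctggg
H2-T23 (chr17:36032686-36032855, minus strand): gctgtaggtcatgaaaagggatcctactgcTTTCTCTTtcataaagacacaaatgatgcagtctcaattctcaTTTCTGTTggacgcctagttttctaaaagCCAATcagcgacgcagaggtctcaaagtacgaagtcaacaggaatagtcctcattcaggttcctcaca
H2-T3 (chr17:36190138-36190307, minus strand): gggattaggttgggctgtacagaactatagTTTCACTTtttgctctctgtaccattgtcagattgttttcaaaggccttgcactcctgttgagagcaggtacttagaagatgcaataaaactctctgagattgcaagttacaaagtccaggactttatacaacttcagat
B2m (chr2:122147520-122147689, plus strand): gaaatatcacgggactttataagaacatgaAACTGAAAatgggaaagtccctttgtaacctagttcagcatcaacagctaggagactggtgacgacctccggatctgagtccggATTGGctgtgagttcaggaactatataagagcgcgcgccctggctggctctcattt

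H2-K1, H2-Q4 and H2-Q7 carried the same order of elements, with the kappaB-type motif upstream of the IRF core, and H2-D1 and H2-Q6 did so as well. All 5 also had a Y box in each orientation, and 4 of them an X2-type motif, while the H2-K1 window has no exact match to it. H2-T22 had the IRF core, the X2-type motif and Y boxes but no match to the kappaB-type letters. H2-T23 had 2 IRF cores and a Y box, B2m an IRF core and a Y box, and H2-T3 an IRF core alone. Of 32851 mouse promoter windows of the same length, 0.938% held the kappaB-type motif, 23.9% the IRF core, 3.23% the X2-type motif and 37.4% the Y box. No matches of different motifs overlapped in these 9 windows. A match describes letters and not occupancy, and a missing match says only that these letters are absent from the window.

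The data themselves were read counts per gene, with totals of 18972906 to 26687856 in knockout libraries and 22453798 to 23008047 in control libraries. Prkci checks the labels. In CPM, counts per 1e6 reads after trimmed-mean (TMM) scaling, the knockouts had 21.5, 14.6 and 21.4, all below the controls with 44.6, 46.9 and 44.0 (log2 fold change −1.24, SE 0.17, edgeR adjusted p = 0.0719). Knockout replicate 1 lay at −21.9 on the first principal component, near the controls (−33.3 to −30.4) and away from knockout replicates 2 and 3 (68.0 and 50.9). Xist and Ddx3y counts did not match the stated sex of knockout replicate 3 and of control replicates 2 and 3. By those counts knockout replicates 2 and 3 and control replicate 3 were female, so that leaving out knockout replicate 1 leaves knockouts of that sex alone, against 1 such library among the 3 controls. Results are therefore given with and without these libraries.

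Transcripts of 9 of the 10 genes were higher in knockout epithelium by ratios of mean CPM between 1.33 and 4.83, and H2-T3 stood at nearly the same level, with a ratio of 1.06. The largest ratios belonged to H2-Q7 and H2-Q6 and the classical genes came between. With all 6 libraries, 0 of the 10 passed the adjusted threshold of 0.05 in edgeR's quasi-likelihood test, where 0.0531% of all genes tested were called higher. Of all genes tested, 0.00664% were called lower. At an unadjusted p below 0.05, 9 were higher and 0 lower, where 9.32% of all genes tested were higher and 7.09% lower. The median log2 fold change over the 10 genes was 0.85, against 0.01 over all 15068 genes tested. In 7 of the 10 every knockout library exceeded every control, as it did for 10.0% of all genes tested, and in 0 every knockout was below every control, as for 11.7% of all genes tested. In bulk libraries, more RNA per cell and more cells with that RNA cannot be told apart.

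**Figure D1:**
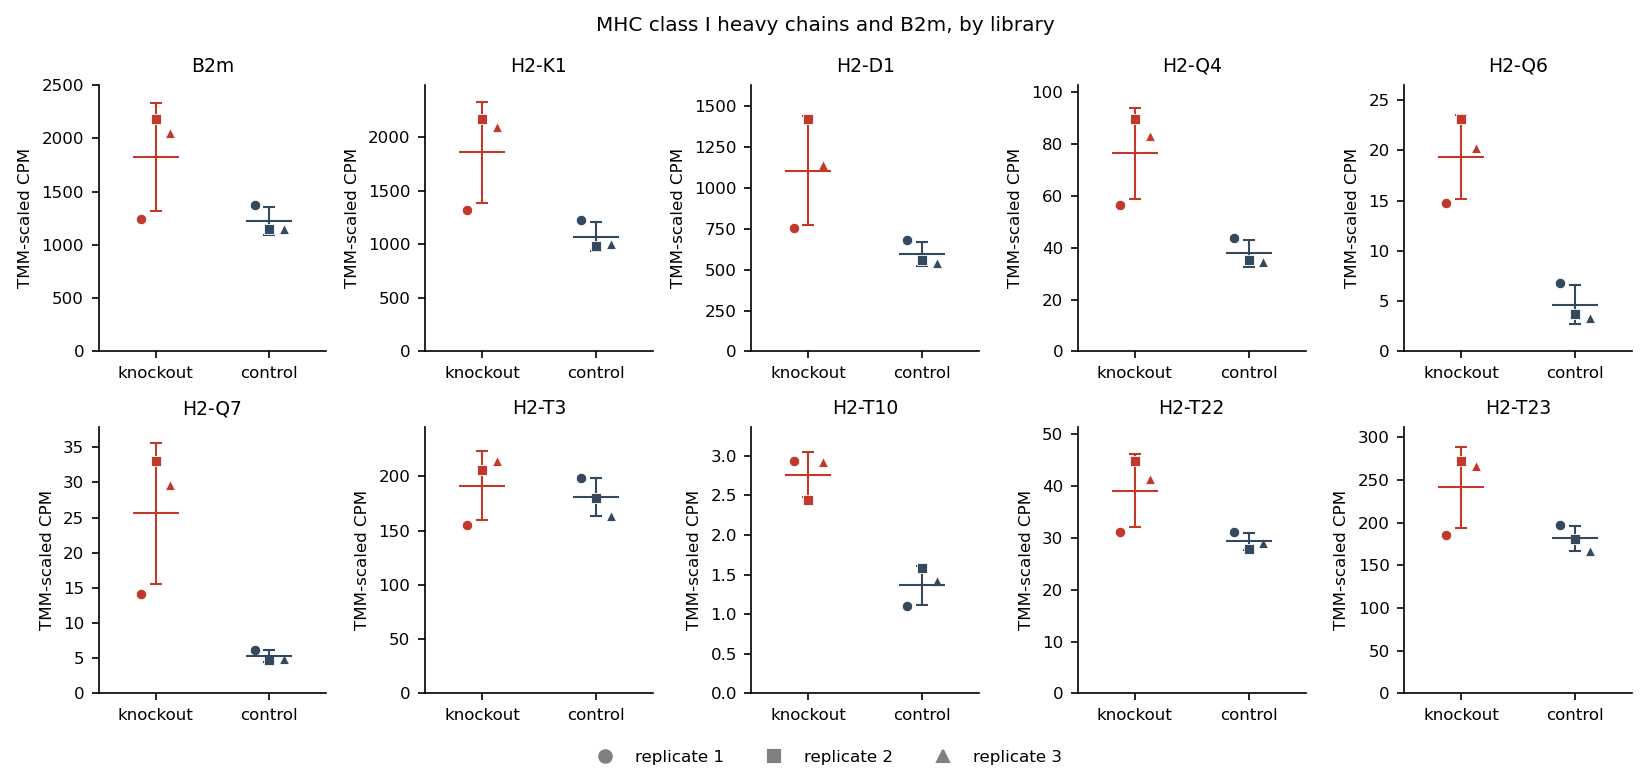
TMM-scaled CPM of each gene in each library, with knockouts on the left and controls on the right, symbols for the replicate number and bars for the mean and SD of 3 libraries. Every vertical axis starts at 0. Knockout replicate 1 (circle) is the lowest knockout for 9 of the 10 genes, H2-T10 being the exception, and in H2-T3 the groups overlap.

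The classical heavy chains were the most abundant. H2-K1 (ENSMUSG00000061232.15, chromosome 17, 33996017 to 34000333 on mm10) had 1317, 2166 and 2092 CPM in the knockout libraries, in replicate order, against 1230, 980 and 1004 CPM in the control libraries. Every knockout library was above the highest control, replicate 1 by 87.6 CPM alone. The log2 fold change was 0.79 (SE 0.22, edgeR adjusted p = 0.179). H2-D1 (ENSMUSG00000073411.11, chromosome 17, 35262730 to 35267499) had 757, 1421 and 1142 CPM in knockouts, against 681, 560 and 544 CPM in controls. It too did not overlap, and its log2 fold change was 0.90 (SE 0.24, edgeR adjusted p = 0.171). Within a library H2-K1 had 1.70 ± 0.158 reads per H2-D1 read in knockouts and 1.80 ± 0.0472 in controls (SD, n = 3 each, two-sided exact permutation p = 0.4), so the balance of the classical pair overlapped between genotypes.

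Of the Q genes, H2-Q6 and H2-Q7 encode chains of the Qa-2 antigen type. H2-Q7 (ENSMUSG00000060550.15, chromosome 17, 35439155 to 35443773) had 14.2, 33.0 and 29.6 CPM in knockouts, against 6.24, 4.79 and 4.89 CPM in controls. Its log2 fold change of 2.27 (SE 0.32, edgeR adjusted p = 0.0720) was the largest of the 10. H2-Q6 (ENSMUSG00000073409.12, chromosome 17, 35424850 to 35430055) had 14.8, 23.1 and 20.2 CPM in knockouts, against 6.85, 3.75 and 3.34 CPM in controls, a log2 fold change of 2.06 (SE 0.31, edgeR adjusted p = 0.0789). Neither overlapped between genotypes. Knockout replicate 1, the lowest of the knockouts, stood above the control mean by 1.42 log2 units for H2-Q7 and 1.67 for H2-Q6. H2-Q4 (ENSMUSG00000035929.11, chromosome 17, 35379617 to 35385290) had 56.4, 89.5 and 83.1 CPM in knockouts, against 43.9, 35.2 and 34.5 CPM in controls, with a log2 fold change of 1.01 (SE 0.19, edgeR adjusted p = 0.113). It did not overlap between genotypes either.

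Close copies share reads, which limits how finely these genes can be parted. Of the windows of 50 bases in annotated H2-Q6 transcripts, 32.0% occur unchanged in transcripts of another gene, most often H2-Q7, and of those in H2-Q7 transcripts 26.4%, most often in H2-Q10. How the deposited counts treated such reads is not given in the sources used here. Summed, H2-Q6 and H2-Q7 had 29.0, 56.1 and 49.8 CPM in knockouts, against 13.1, 8.53 and 8.24 CPM in controls. The sum of the Q genes H2-Q4, H2-Q6 and H2-Q7 was 2.54 times as high in knockouts. Neither sum overlapped between genotypes. Within a library, H2-Q7 had 10.8, 15.2 and 14.2 reads per 1000 H2-K1 reads in knockouts, against 5.07, 4.88 and 4.87 in controls (two-sided exact permutation p = 0.1, the smallest that 3 against 3 can give).

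Of the 10 genes, H2-T3, H2-T23 and H2-T22 had the smallest fold changes. H2-T3 encodes the thymus leukaemia antigen, a chain of small intestinal epithelium that binds the CD8 alpha homodimer of intraepithelial lymphocytes. H2-T3 (ENSMUSG00000054128.16, chromosome 17, 36185572 to 36190287) had 155, 206 and 214 CPM in knockouts, against 199, 180 and 164 CPM in controls. Knockout replicate 1 was the lowest of all 6 libraries and the groups overlapped, with a log2 fold change of 0.08 (SE 0.15, edgeR adjusted p = 0.812). The sign turned to −0.04 with library totals in place of TMM scaling. H2-T3 shares little sequence by this measure, since 0.894% of its windows occur in another gene.

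H2-T23 encodes Qa-1, the ligand of the CD94 and NKG2A receptor of lymphocytes. H2-T23 (ENSMUSG00000067212.8, chromosome 17, 36029773 to 36032855) had 186, 272 and 266 CPM in knockouts, against 197, 181 and 167 CPM in controls. Knockout replicate 1 lay within the control range, and the log2 fold change was 0.41 (SE 0.17, edgeR adjusted p = 0.287). H2-T22 and H2-T10 encode closely similar chains that some gamma-delta T cells recognise. H2-T22 (ENSMUSG00000056116.18, chromosome 17, 36037128 to 36042747) had 31.2, 44.8 and 41.4 CPM in knockouts, against 31.2, 27.8 and 29.0 CPM in controls. Its log2 fold change was 0.42 (SE 0.15, edgeR adjusted p = 0.248), and the lowest knockout passed the highest control by 0.0701 CPM alone.

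H2-T10 (ENSMUSG00000079491.9, chromosome 17, 36115876 to 36121465), listed as a polymorphic pseudogene, was the sparsest of the 10. It had 58, 56 and 73 reads in knockouts, against 25, 38 and 34 reads in controls, or 2.93, 2.44 and 2.92 CPM in knockouts against 1.10, 1.58 and 1.42 CPM in controls. The log2 fold change was 1.01 (SE 0.25, edgeR adjusted p = 0.145). It was the sole gene of the 10 for which knockout replicate 1 was as high as the other knockouts. Since 31.7% of its windows occur in H2-T22 transcripts, its value is uncertain, and the sum of H2-T10 and H2-T22 had 34.2, 47.2 and 44.3 CPM in knockouts, against 32.3, 29.4 and 30.4 CPM in controls.

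B2m, the shared light chain, has no close copy, with 0 of its windows found in another gene. B2m (ENSMUSG00000060802.8, chromosome 2, 122147686 to 122153083) had 1244, 2178 and 2052 CPM in knockouts, against 1378, 1151 and 1145 CPM in controls. Knockout replicate 1 lay within the control range and replicates 2 and 3 above it, with a log2 fold change of 0.58 (SE 0.23, edgeR adjusted p = 0.282). Heavy chain reads summed over the 9 genes had 2535, 4258 and 3891 CPM in knockouts, against 2396, 1975 and 1952 CPM in controls. Per B2m read there were 2.04, 1.96 and 1.90 heavy chain reads in knockouts, against 1.74, 1.72 and 1.71 in controls. That ratio did not overlap between genotypes and was, unlike the levels, highest in knockout replicate 1 (two-sided exact permutation p = 0.1, the smallest possible). It holds for these 9 heavy chains alone. H2-Q2, not in the sum, had 580, 570 and 668 CPM in knockouts, against 609, 549 and 515 CPM in controls. H2-Q1 was left out as well, and both overlapped between genotypes. A ratio that includes them was not computed.

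**Figure D2:**
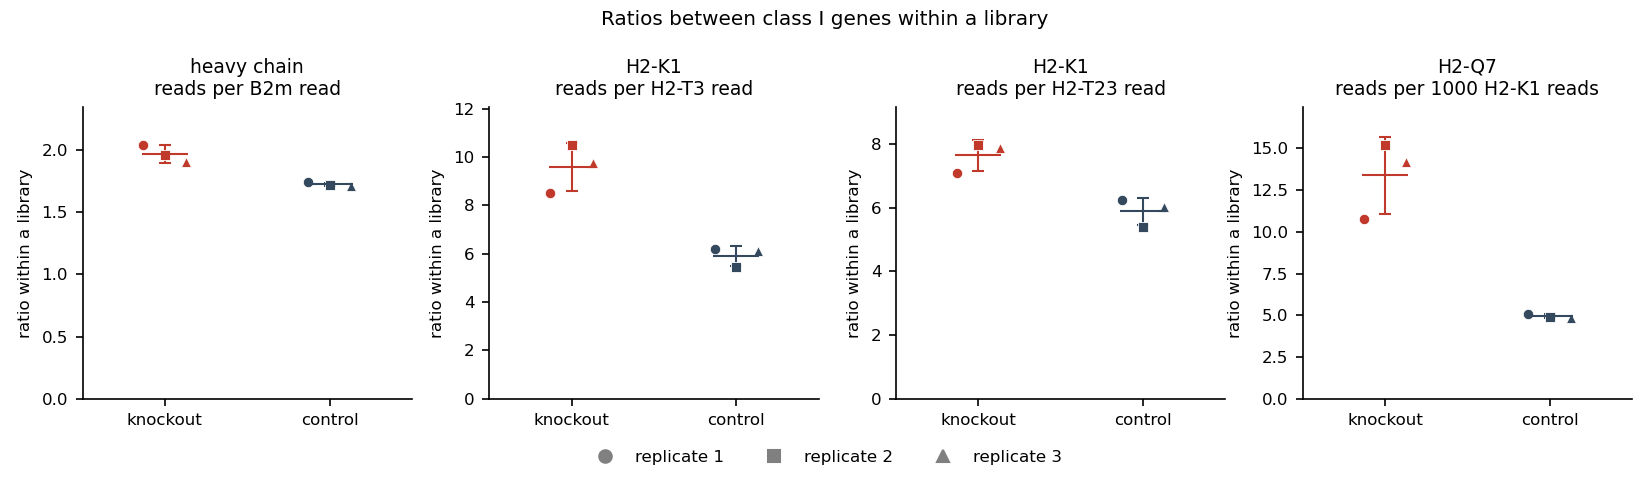
Ratios of reads between class I genes within each library, with knockouts on the left, controls on the right and bars for the mean and SD of 3 libraries. A ratio within a library is not affected by scaling between libraries, and in all 4 panels the 3 knockouts, replicate 1 (circle) included, lie above the 3 controls. Heavy chain reads are those of the 9 genes described here, without H2-Q1 and H2-Q2.

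The mix of reads among these 9 heavy chain genes differed accordingly. H2-K1 and H2-D1 together gave 83.1% ± 1.20 of heavy chain reads in knockouts and 79.0% ± 0.902 in controls (SD, n = 3 each). H2-Q4, H2-Q6 and H2-Q7 together gave 3.40% ± 0.0277 in knockouts and 2.26% ± 0.104 in controls. H2-T3, H2-T10, H2-T22 and H2-T23 together gave 13.5% ± 1.23 in knockouts and 18.7% ± 0.970 in controls. H2-K1 had 8.51, 10.5 and 9.76 reads per H2-T3 read in knockouts, against 6.18, 5.44 and 6.10 in controls, and 7.64 ± 0.491 reads per H2-T23 read in knockouts, against 5.89 ± 0.425 in controls (SD, n = 3 each, two-sided exact permutation p = 0.1 for both, the smallest possible). These shares count reads and are not corrected for transcript length. They are not shares of all class I or all Q gene reads. Outside the sums, H2-Q2 had 606 CPM in knockouts and 558 CPM in controls, and H2-Q1 had 181 and 143 CPM. Each of these exceeded H2-Q4, H2-Q6 and H2-Q7 summed, at 121 CPM in knockouts and 47.8 CPM in controls. Shares that include them were not computed.

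Per kilobase of annotated exon the order of levels was led by B2m, at 2122 ± 589 CPM per kb in knockouts and 1424 ± 154 in controls (SD, n = 3 each). H2-K1 followed at 633 ± 160 in knockouts and 365 ± 46.9 in controls, and H2-D1 at 429 ± 129 in knockouts and 231 ± 29.0 in controls. Next were H2-T23 at 83.5 ± 16.6 in knockouts and 62.9 ± 5.2 in controls, and H2-T3 at 70.3 ± 11.7 in knockouts and 66.3 ± 6.42 in controls. The order of H2-T23 and H2-T3 differed between genotypes. H2-T23 was above H2-T3 in every knockout library and below it in every control library, though their ranges over the libraries of a genotype overlapped. H2-Q4 stood at 29.4 ± 6.76 in knockouts and 14.6 ± 2.02 in controls, and H2-T22 at 11.5 ± 2.07 in knockouts and 8.59 ± 0.505 in controls. H2-Q6 stood at 9.29 ± 2.02 in knockouts and 2.23 ± 0.920 in controls, and H2-Q7 at 6.0 ± 2.35 in knockouts and 1.24 ± 0.190 in controls. H2-T10 was last, at 0.808 ± 0.0819 in knockouts and 0.400 ± 0.0715 in controls. The ranges of H2-K1 and H2-D1, of H2-T22 and H2-Q6, and of H2-Q6 and H2-Q7 overlapped over the knockouts but not over the controls. Within every single library, knockout or control, the first of each of these pairs was above the second. The exon length of H2-K1 comes from an entry whose version and coordinates differ from those of the count table.

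Set beside the promoters, the 5 genes with a match to the kappaB-type letters GGGATTNCC had log2 fold changes of 0.79 to 2.27. The 4 with no match to these letters, B2m, H2-T22, H2-T23 and H2-T3, had 0.08 to 0.58. The motifs and this division were chosen after the values were seen, and the division was not tested. Other forms of kappaB site were not searched, so the division is one of these letters and not of kappaB sites in general. H2-T10, with a log2 fold change of 1.01, had no window and stands outside it. The IRF core was in all 9 windows and so did not part them. H2-T3, the gene with the smallest fold change, was also the gene with neither an X2-type motif nor a Y box in the window. Within the 5 genes the motifs did not order the values, since H2-Q4 and H2-Q6 held the same set at 1.01 and 2.06.

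**Figure D3:**
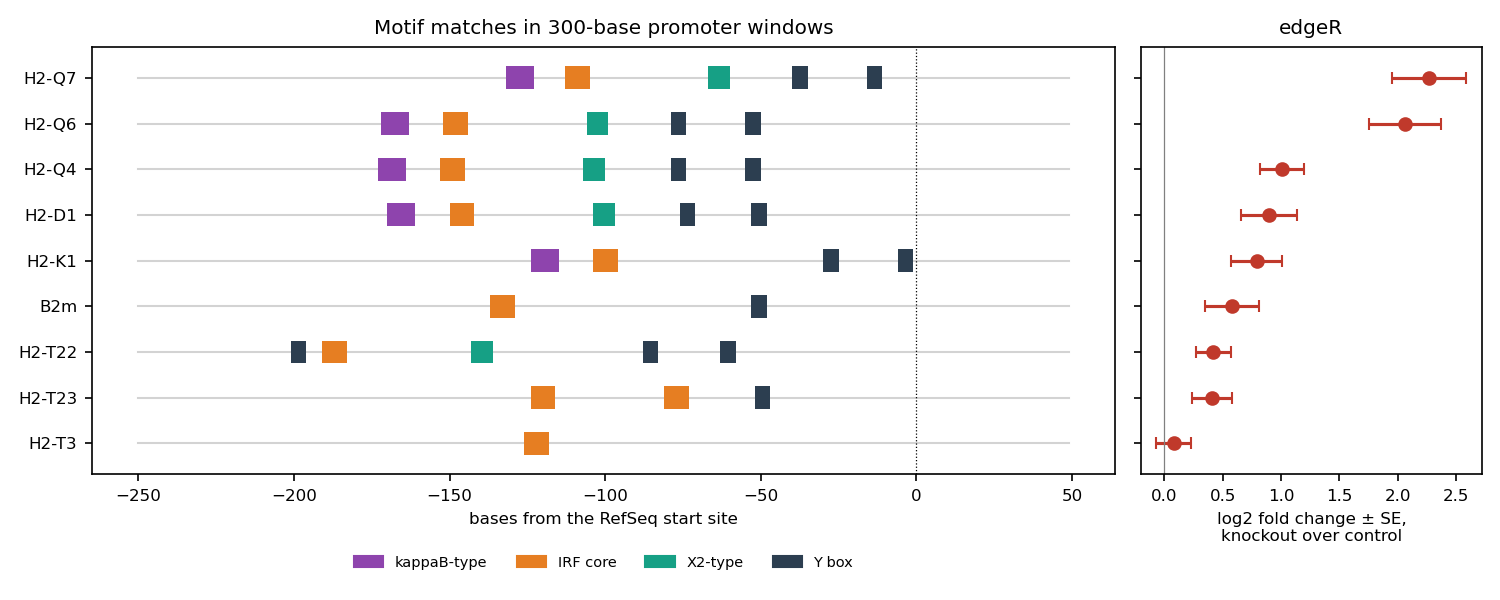
On the left, matches of 4 motifs in promoter windows of 300 bases, placed by distance from the RefSeq start site. On the right, the log2 fold change of each gene, knockout over control, with its SE from edgeR (n = 3 each). Among the genes drawn, the 5 with a match to the kappaB-type letters are those with log2 fold changes of 0.79 and above. The motifs and this division were chosen after the values were seen, and the division was not tested. H2-T10, with a log2 fold change of 1.01, had no window and is not drawn.

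Other genes of the pathway were taken from lists chosen with earlier results of these data known, so their counts are not an independent check. Of 23 genes for transactivation, peptide supply and peptide loading, 0 passed the adjusted threshold in edgeR, where 0.0531% of all genes tested were called higher. At an unadjusted p below 0.05, 11 were higher and 0 lower, where 9.32% of all genes tested were higher and 7.09% lower. Their median log2 fold change was 0.53. Nlrc5, the class I transactivator, had 31.0, 64.1 and 58.0 CPM in knockouts, against 11.6, 7.12 and 9.28 CPM in controls, a log2 fold change of 2.45 (SE 0.31, edgeR adjusted p = 0.0719). Like H2-Q7 and H2-Q6, it was at least 1.42 log2 units above the control mean in each knockout library. Irf1, an interferon-induced transcription factor, had 220, 314 and 294 CPM in knockouts, against 169, 164 and 154 CPM in controls (log2 fold change 0.76, SE 0.15). Ciita, the class II transactivator, had 85.2, 79.6 and 83.4 CPM in knockouts, against 61.6, 50.4 and 41.7 CPM in controls (log2 fold change 0.69, SE 0.15). The 3 genes with a negative log2 fold change, named after their values were seen, were Rfxap (−0.10) and Rfxank (−0.12), both RFX subunits, and Irf2 (−0.29).

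Of the 8 peptide supply genes, 0 passed the adjusted threshold in edgeR, where 0.0531% of all genes tested were called higher. At an unadjusted p below 0.05, 4 were higher, Tap1, Tap2, Psmb8 and Psmb9, where 9.32% of all genes tested were. Tap1, a subunit of the transporter that brings peptides into the endoplasmic reticulum, had 93.0, 245 and 238 CPM in knockouts, against 88.3, 64.2 and 67.4 CPM in controls (log2 fold change 1.39, SE 0.36, edgeR adjusted p = 0.157). Its partner Tap2 had 63.7, 114 and 130 CPM in knockouts, against 63.5, 52.8 and 53.4 CPM in controls (0.86, SE 0.25, edgeR adjusted p = 0.187). Knockout replicate 1 lay close to the highest control for both. Of the immunoproteasome subunits, Psmb9 had a log2 fold change of 0.87 (SE 0.22) with no overlap between genotypes, Psmb8 of 0.51 (SE 0.20) with overlap, and Psmb10 of 0.07 (SE 0.17). The peptide trimmer Erap1 stood at 99.8 CPM in knockout replicate 1 and at 210 and 227 CPM in replicates 2 and 3, against 156 to 159 CPM in controls. Tapbp, which encodes the loading chaperone tapasin, had 340, 543 and 554 CPM in knockouts, against 360, 321 and 314 CPM in controls. For Calr, Sec61a1 and Hspa5, general folding or translocation genes of the endoplasmic reticulum, knockout replicate 1 was the lowest of all 6 libraries or, for Hspa5, within the control range, and replicates 2 and 3 were above every control.

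**Figure D4:**
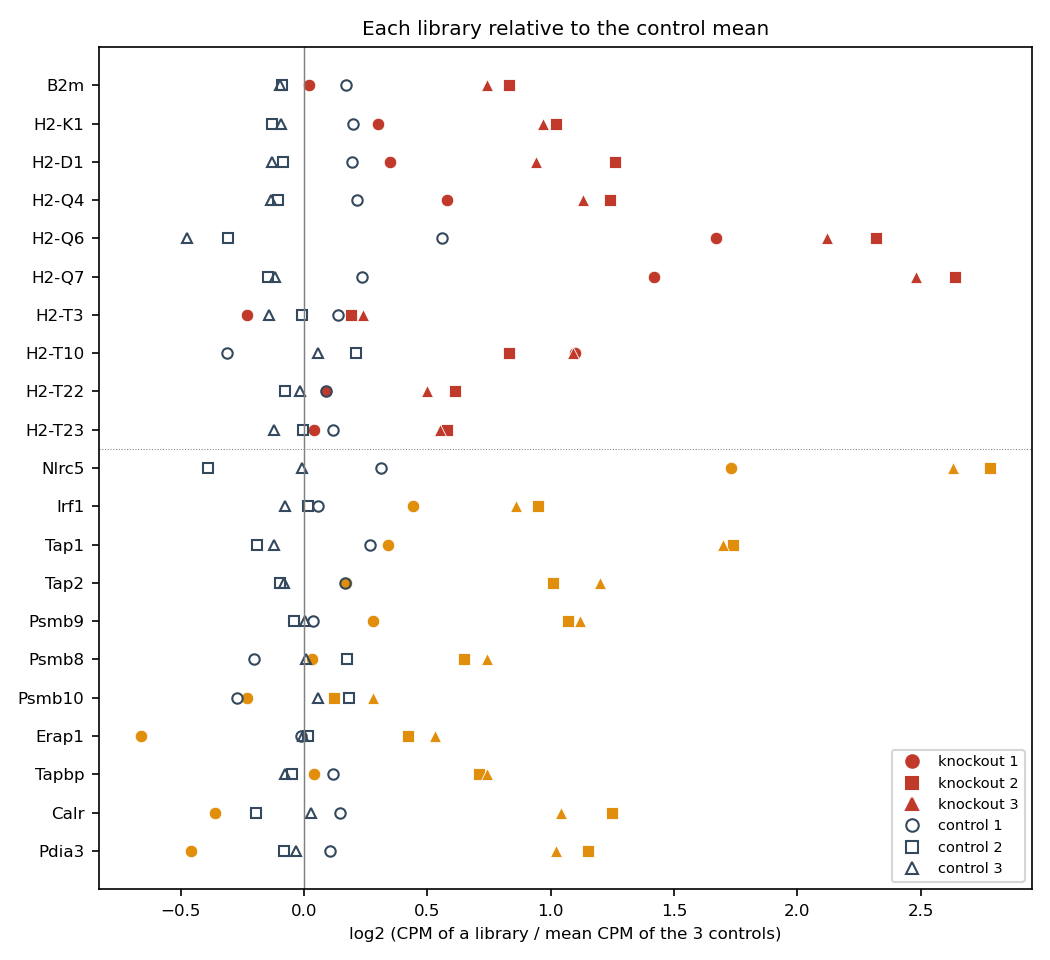
Log2 ratio of each library's CPM to the mean of the 3 controls, for the class I genes (red, above the dotted line) and pathway genes (orange), with controls as open symbols. Knockout replicate 1 (filled circle) sits near the controls for B2m, H2-T22, H2-T23, Tap2, Psmb8 and Tapbp. It lies below every control for H2-T3, Erap1, Calr and Pdia3, and above them for H2-Q6, H2-Q7 and Nlrc5.

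Outside the 10 genes, 8 further class I genes were tested and all 8 had a positive log2 fold change, 3 of them at an unadjusted p below 0.05, where 9.32% of all genes tested were higher. In edgeR, 0 of these 8, 0 of the 4 class I-like genes and 0 of the 5 receptor genes tested passed the adjusted threshold. Of all genes tested, 0.0531% were called higher at that threshold. H2-Q5 had 3.99, 4.44 and 5.48 CPM in knockouts, against 1.76, 1.54 and 1.80 CPM in controls (log2 fold change 1.45, SE 0.22, edgeR adjusted p = 0.0817), and shares windows with H2-Q6 and H2-Q7. H2-M3 had a log2 fold change of 0.89 (SE 0.22), and H2-T24 of 0.85 (SE 0.30). H2-Q2, the most abundant of them at 606 ± 53.9 CPM in knockouts and 558 ± 47.5 CPM in controls (SD, n = 3 each), had one of 0.12 (SE 0.13). Of 4 class I-like genes tested, Fcgrt, the neonatal Fc receptor chain that also pairs with beta-2-microglobulin, had 64.0, 95.4 and 105 CPM in knockouts, against 63.8, 50.7 and 57.1 CPM in controls (0.62, SE 0.19), and Ulbp1 had a log2 fold change of 0.96 (SE 0.36). Among receptors for class I, Cd8a had 31.1, 54.4 and 36.0 CPM in knockouts, against 25.4, 19.7 and 15.3 CPM in controls. Of the receptor genes, 3 were higher at an unadjusted p below 0.05, Cd8a, Cd8b1 and Cd160, again where 9.32% of all genes tested were.

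Among 7971 genes of at least 10 CPM, those whose centred log2 CPM profile over the 6 libraries was nearest to B2m were Slc35a2, Tapbp, Mov10, Rrbp1 and Smpdl3a, at root mean square differences of 0.053 to 0.063. Nearest to H2-K1 were AW112010, Igsf9b, Tmem123, Syvn1 and H2-D1 (0.081 to 0.093). Nearest to H2-D1 were AW112010, H2-K1, Pcsk1, Tnfrsf1b and H2-Q4 (0.067 to 0.103), and to H2-T23 Plxnb2, Tmprss4, Saraf, Dirc2 and Ddr1 (0.029 to 0.050). Within the 10 genes the nearest profiles were those of H2-T22 and H2-T23, 0.063 apart, and the farthest those of H2-Q7 and H2-T3, 1.087 apart.

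Without knockout replicate 1, all but H2-T3 passed, 9 of 10 by edgeR's quasi-likelihood test adjusted over all genes, where 10.0% of all genes tested were called higher. Log2 fold changes in that set were 0.79 for B2m, 0.99 for H2-K1, 1.11 for H2-D1, 1.19 for H2-Q4, 2.22 for H2-Q6 and 2.56 for H2-Q7, with adjusted p between 0.000302 for H2-Q7 and 0.0489 for H2-T10. For H2-T3 it was 0.21 (SE 0.11, edgeR adjusted p = 0.207). With all 6 libraries, DESeq2 placed H2-K1, H2-D1, H2-Q4, H2-Q6, H2-Q7 and H2-T10 higher, where 3.37% of all genes were called higher. Without knockout replicate 1 it placed 8 higher, where 11.1% were called higher, and edgeR with no expression filter placed H2-Q4, H2-Q6 and H2-Q7 higher, where 0.694% were. With the replicate number as a block, 6 of the 10 had an unadjusted p below 0.05, where 9.32% of all genes tested were higher. In the 3 libraries that match the series text in sex, control replicate 1 and knockout replicates 1 and 2, the log2 fold changes were 0.31 for B2m, 0.50 for H2-K1, 1.47 for H2-Q6, 1.92 for H2-Q7 and −0.14 for H2-T3, and 0 of the 10 passed in edgeR. At an unadjusted p below 0.05, 2 were higher there, where 0.936% of all genes tested were. There the lone control is assumed to vary like the knockouts.

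**Figure D5:**
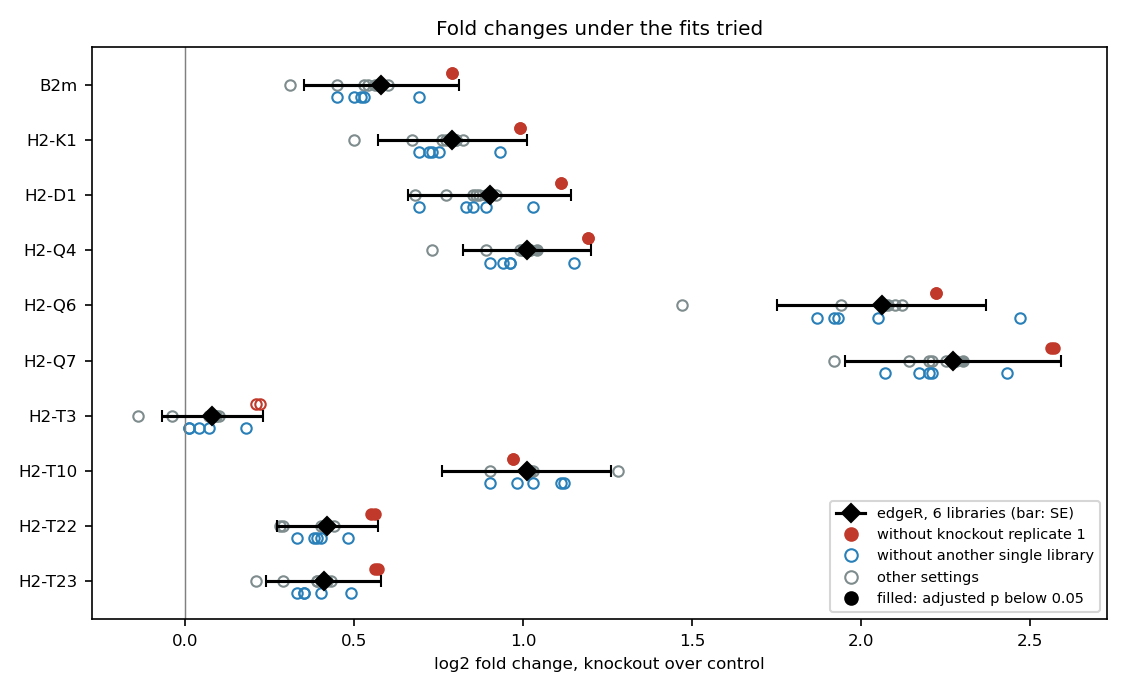
Log2 fold change, knockout over control, of each gene under every fit tried, with the edgeR value of all 6 libraries as a diamond with its SE and a filled circle where the adjusted p was below 0.05. Leaving out knockout replicate 1 (red) moves 9 of the genes past the threshold, and H2-T3 stays between −0.14 and 0.22.

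Marker lists of the epithelium and of other cells were summed in each library, and their genes counted as higher or lower where the groups did not overlap, as 10.0% and 11.7% of all genes tested were. The epithelial list summed to 14587, 16421 and 16622 CPM in knockouts, against 14464, 13429 and 14005 CPM in controls, with 3 of 10 genes higher and 1 lower without overlap. The T cell and intraepithelial lymphocyte list summed to 217, 299 and 200 CPM in knockouts, against 184, 132 and 115 CPM in controls, with 5 of 10 genes higher without overlap. The macrophage and dendritic cell list summed to 199, 233 and 176 CPM in knockouts and 183, 127 and 167 CPM in controls (3 of 8 higher). Mertk made up most of that sum, with 162, 206 and 145 CPM in knockouts and 170, 115 and 154 CPM in controls. Csf1r, Adgre1, Itgax, Lyz2 and Cd14 had ratios of mean CPM of 2.32 to 3.46, and Cd68 had one of 1.28. Adgre1, Lyz2, Cd14 and Cd68 overlapped between genotypes. Adgre1 had 2.48, 0.305 and 0.56 CPM in knockouts, against 0.132, 0.25 and 0.585 CPM in controls. Fcgr1 had 5, 2 and 5 reads in knockouts and 0 in each control. The B and plasma cell list summed to 323, 147 and 324 CPM in knockouts, against 30.1, 61.6 and 130 CPM in controls (2 of 7 higher). Fibroblast sums were 290, 195 and 256 CPM in knockouts and 325, 302 and 301 CPM in controls (1 of 7 higher, 1 lower). Fbln1, the lower gene, made up most of that sum, with 237, 183 and 228 CPM in knockouts and 320, 295 and 284 CPM in controls. The other 6 genes had ratios of mean CPM of 2.05 to 4.73. Of these, Col1a1, Col1a2, Col3a1, Dcn and Pdgfra overlapped between genotypes, with knockout replicate 2 below the control mean. Vim did not overlap. Smooth muscle sums were 298, 266 and 325 CPM in knockouts and 261, 245 and 256 CPM in controls (1 of 5 higher). Mylk, the higher gene, made up most of that sum at a ratio of 1.07. Acta2, Myh11, Tagln and Des had ratios of 7.34 to 21.5, with high values in knockout replicates 1 and 3 and not in replicate 2. Of the 5 genes, 4 were higher at an unadjusted p below 0.05 in edgeR, where 9.32% of all genes tested were. Endothelial sums were 14.9, 4.79 and 6.88 CPM in knockouts and 2.86, 2.62 and 4.22 CPM in controls (2 of 5 higher). No marker was at 0 in all libraries. Loci that overlap ribosomal RNA repeats took 4.89% to 5.91% of knockout counts and 2.16% to 2.91% of control counts, and leaving them out left the number of class I genes at an unadjusted p below 0.05 at 9. The part of these other cells in the class I levels was not tested.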

How the data were processed

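RNA of intestinal epithelium was sequenced in 6 libraries. Per the labels, cells were loosened with EDTA and DTT, and both selection of polyadenylated RNA and a kit for ribosomal RNA depletion are named. The submitters' processing notes name STAR 2.5.0a, Trim Galore, bcl2fastq 2.17 and FastQC, and the build mm10. How reads were counted, by strand or over several matching genes, is not given in the sources used here. The authors deposited unnormalized whole-number counts per gene. Groups and replicate numbers came from the titles, and sexes from the series text.

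The test was the two-sided quasi-likelihood F test of edgeR 4.0.16 (R 4.3.3), fitted on genotype alone after TMM scaling and the default filter with a minimum count of 10. Benjamini-Hochberg adjustment covered 15068 genes, with 0.05 as the threshold, and SE is the log2 fold change over the square root of F. P-values measure the spread between these libraries, and intervals of counting error are not given because the replicate spread exceeds it. The members and lists were chosen with earlier results of these data known. All members are named. Of other lists, the genes named are the most abundant, those of smallest p and a fixed set of presentation genes, and H2-Q8, H2-Q9, H2-T9 and H2-L are not analysed here. A gene of the lists, counted in them, has no values given here. Alternatives were other scalings, filters and tests (DESeq2 1.42.0, limma 3.58.1), a replicate block, a term for the sex in the series text, and leaving out libraries. Xist and Ddx3y counts went against that sex in knockout replicate 3 and control replicates 2 and 3. No fit used the sex by those counts. One alternative, leaving out knockout replicate 1 with DESeq2, was chosen after seeing the data.

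Libraries of the same replicate number had deviations from group means that correlated at 0.117, 0.119 and 0.149, against −0.143 to 0.00929 for other pairs, and no label says what a number marks. For the block, the numbers were taken as pairing the libraries. The correlations are small and, with deviations taken from group means, depend on each other, so they do not show that the numbers mark pairs. Libraries of a group differed by more than sampling noise, with a chi-square per gene of at least 15.1. Promoters come from RefSeq (GRCm38.p6), and exon lengths and transcripts from GENCODE mouse release M21, with which 97.8% of the gene identifiers matched by version. H2-K1 and H2-Q7 matched without it.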

Additional observations from a re-analysis of the deposited data

How the results depend on the processing

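With all 6 libraries edgeR called 0 of the 10 class I genes and 0 of the 23 presentation genes, where 0.0531% of all genes tested were called higher. The replicate block left both counts at 0. At an unadjusted p below 0.05 it left 6 class I genes, against 9, and 9 presentation genes, against 11. With and without the block, 9.32% of all genes tested were higher at that p. The block changed no adjusted call of a class I gene, Nlrc5 or Prkci. With no expression filter 3 class I genes (H2-Q4, H2-Q6 and H2-Q7) and 2 presentation genes passed, where 0.694% of all genes were called higher. By DESeq2 6 and 7 passed, where 3.37% were called higher. With library totals the presentation gene that passed was Nlrc5 (edgeR adjusted p = 0.0418), and the share of all genes at that setting is not given here. Leaving out single libraries gave from 0 to 9 class I genes and from 0 to 18 presentation genes past the adjusted threshold. The upper values came without knockout replicate 1, where 10.0% of all genes tested were called higher, against 0.0531% with all 6 libraries. At an unadjusted p the range was 7 to 20 presentation genes (11 with all libraries), and the matching shares of all genes are not given here. By DESeq2 without knockout replicate 1, 8 class I and 18 presentation genes passed, where 11.1% of all genes tested were called higher. At an unadjusted p, 20 presentation genes passed there, again with no share of all genes to set beside them. In the 3 libraries that match the series text in sex, with a lone control, log2 fold changes were 1.47 for H2-Q6, 1.92 for H2-Q7 and 2.03 for Nlrc5. H2-T3 turned to −0.04 with library totals, which set the median of all genes at −0.10 against 0.01, and to −0.14 in the libraries that match in sex. No other class I gene changed sign under any setting tried. The cause of these changes was not tested. H2-T10, with 25 to 73 reads a library, has the least depth.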
